A study of Mus musculus with 16 samples.

Results

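The NAIP proteins and Nlrc4 form an inflammasome that senses bacteria inside cells, and the expression of their genes was followed over 16 arrays of mouse skin wounds. All probes whose accession maps to Naip1, Naip2, Naip5, Naip6 or Nlrc4 in RefSeq were taken. This gave 6 probes for 5 genes, with 2 probes for Naip1, out of 39333 probes and 20790 named genes on the arrays. The genes were chosen by their log2 levels in WT and db/db wounds on these same arrays, so the difference between WT and db/db is described here without a test. The WT group consisted of female C57BL/6J mice aged 10 to 12 weeks with untreated wounds. The other groups consisted of female db/db mice aged 10 weeks, of the strain C57BLKS/J Iar-+Leprdb/+Leprdb, homozygous for the db mutation of the leptin receptor gene Lepr. Wounds of the db/db group were left untreated. In the db/db + estrogen group they were given 0.75 μg/g/day of estradiol benzoate, dissolved in sesame oil, and in the db/db + vehicle group only the oil. RNA came from homogenates of 4 mm full-thickness wounds with the skin around them, labelled day 7 or day 14 after wounding, with 2 arrays in each of the 8 groups. WT and db/db mice belong to different inbred strains, so strain, diabetes and the db allele cannot be told apart in any comparison with WT. In such whole-wound RNA, fewer cells of a type and less RNA per cell cannot be told apart either.

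NAIP proteins are sensors in the cytosol, best known in macrophages and in epithelium. Naip5 and Naip6 bind bacterial flagellin, Naip2 binds the inner rod of the type III secretion system, and Naip1 binds its needle. A sensor that has bound its ligand recruits Nlrc4, which activates caspase-1, and caspase-1 then cleaves gasdermin D and the precursors of the cytokines IL-1β and IL-18. The Naip genes lie side by side on chromosome 13 as near copies of each other, a cluster known for differences between inbred strains, such as the resistance to Legionella that maps to Naip5. Nlrc4 lies apart on chromosome 17.

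The sequences around the start sites are shown because the Naip copies share them unequally. RefSeq windows of 300 bases, with 250 before the start and 50 after it, were read from the table of build GRCm38.p6, which is the C57BL/6J reference, and all 5 genes had one. The windows of the 4 Naip genes follow, 5′ to 3′ on the strand of the gene, with capitals for the runs described next.
Naip1, chr13:100452815-100453114, minus strand: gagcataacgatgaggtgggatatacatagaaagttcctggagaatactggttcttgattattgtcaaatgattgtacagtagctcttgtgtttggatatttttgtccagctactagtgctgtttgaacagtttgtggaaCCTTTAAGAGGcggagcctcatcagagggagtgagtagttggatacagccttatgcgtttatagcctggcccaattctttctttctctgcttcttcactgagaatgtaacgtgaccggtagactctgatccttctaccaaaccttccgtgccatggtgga
Naip2, chr13:100202073-100202372, minus strand: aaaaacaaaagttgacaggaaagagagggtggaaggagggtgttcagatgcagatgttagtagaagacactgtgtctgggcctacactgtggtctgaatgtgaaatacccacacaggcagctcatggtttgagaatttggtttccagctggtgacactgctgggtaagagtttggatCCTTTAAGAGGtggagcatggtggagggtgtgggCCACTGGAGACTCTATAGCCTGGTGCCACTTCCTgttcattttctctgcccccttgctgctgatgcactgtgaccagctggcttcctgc
Naip5, chr13:100247287-100247586, minus strand: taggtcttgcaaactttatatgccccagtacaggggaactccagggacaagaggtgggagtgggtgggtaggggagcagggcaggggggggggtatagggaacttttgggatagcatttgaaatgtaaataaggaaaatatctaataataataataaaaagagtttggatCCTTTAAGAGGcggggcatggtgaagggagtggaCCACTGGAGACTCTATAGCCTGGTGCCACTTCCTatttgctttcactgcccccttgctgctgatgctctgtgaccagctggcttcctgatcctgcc
Naip6, chr13:100316567-100316866, minus strand: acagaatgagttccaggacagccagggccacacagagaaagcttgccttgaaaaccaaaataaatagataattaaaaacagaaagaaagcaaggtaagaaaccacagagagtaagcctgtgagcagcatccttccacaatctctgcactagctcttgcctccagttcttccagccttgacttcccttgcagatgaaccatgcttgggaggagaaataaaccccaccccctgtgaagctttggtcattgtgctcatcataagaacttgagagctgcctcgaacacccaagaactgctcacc
The run CCTTTAAGAGG of 11 bases was the longest found in Naip1, Naip2 and Naip5 alike. It began at positions −110, −73 and −80 from the start, respectively, and 30 of 32851 windows of this length (0.0913%) held it on either strand. Naip2 and Naip5 shared another run of 34 bases, the second in capitals, which 2 of all windows held. Neither run was in the windows of Naip6 and Nlrc4. In an end-to-end alignment the windows of Naip2 and Naip5 had 212 identical bases, the most of any pair of Naip genes, and those of Naip5 and Naip6 had 168, the fewest. Pairs of a Naip window with that of Nlrc4 had from 160 (Naip5) to 183 (Naip6), a range that includes the 168. The letters TATAAA, searched on both strands, were in the windows of Naip1 and Naip5 and in 13.6% of all. The sequence of the db/db strain was not used here, and the letters of the array probes were not given, so whether a probe reads several Naip copies, or reads both strains equally, was not tested.

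Levels are given as the log2 of the background-subtracted signal minus that of the 75th percentile of the array, so that 0 is the level of a probe at the 75th percentile. They are compared between arrays for 1 probe at a time, never between probes. The share of probes well above background ran from 70.1% to 79.0% over the arrays, and 0 spots were saturated. The series description calls the arrays of a group biological replicates without naming mice, so a p-value here measures the spread between these arrays. With 2 arrays against 2, the smallest p of an exact permutation test is 0.333. The arrays labelled day 7 lay on a pair of slides with 1 replicate of every group on each, and those labelled day 14 lay on another pair, scanned on a separate day. Labelled day, slide and scan day therefore cannot be told apart. Of the slides of labelled day 14, one held both untreated db/db arrays and the other both WT arrays, with 1 array of db/db + estrogen and of db/db + vehicle on each. No slide therefore held both db/db and WT arrays of labelled day 14, and a fit with slide as a block could compare them only through the treated groups. Under this block their log2 differences were 7.75 against 7.77 for Naip6, 1.50 against 1.49 for the first Naip1 probe, 1.04 against 1.21 for Naip2, 0.57 against 0.56 for Nlrc4 and −1.33 against −0.96 for Naip5, none of them floored at background. That of the second Naip1 probe went from 0.75 to 0.00035. Of 39 published fold changes between db/db and WT, 0 were met within 1% by the arrays of the same labelled day and 39 by those of the other labelled day. Whether the labels or the published days were exchanged cannot be told from the files, and the days given here are those of the labels. The Lepr probe ran from 1.84 to 3.40 on the WT arrays and from 1.36 to 2.35 on the db/db arrays, and whether it lies in the part that the db mutation alters was not tested.

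Naip6, a flagellin sensor, had the widest gap between WT and db/db wounds of the 6 probes. On the WT arrays its log2 level was −8.39 and −3.32 (replicates 1 and 2, in this order throughout) for labelled day 7, and −9.91 and −9.22 for labelled day 14. In db/db they were −1.27 and −0.84 for labelled day 7 and −1.62 and −1.97 for labelled day 14. All 12 arrays of db/db mice were well above background and lay above all 4 WT arrays, of which WT day 7 replicate 2 alone was well above background. For labelled day 14 the db/db level was at least 78.7-fold higher than WT, with at least 103-fold for db/db + estrogen and at least 74.0-fold for db/db + vehicle. For these bounds each WT array counted with the signal of the probe or with the dimmest signal that was still well above background on that array, whichever was higher. For labelled day 7 the difference was 4.80 on the log2 scale, with 1 of the 2 WT arrays well above background. It was 4.49, or 22.5-fold, with the other WT array at its dimmest signal well above background. The value rested on these arrays, with 2.27 without WT day 7 replicate 1 and 7.33 without replicate 2. Under limma's normexp background correction the log2 differences were 2.26 and 3.01 for labelled days 7 and 14. To see whether WT day 7 replicate 2 carried signal of this kind more widely, the other probes well above background on all 12 db/db arrays and on none of the other 3 WT arrays were counted. There were 16, and 0 of them were well above background on this array. Counted in the same way, WT day 7 replicate 1 gave 0 of 16 too, so the count does not set the WT day 7 arrays apart from each other. Only 4 of the 16 had a mean db/db level more than 16-fold above the dimmest well-above-background signal of the WT arrays. The same count gave 21 of 37 for WT day 14 replicate 1 and 4 of 20 for WT day 14 replicate 2.

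**Figure D1:**
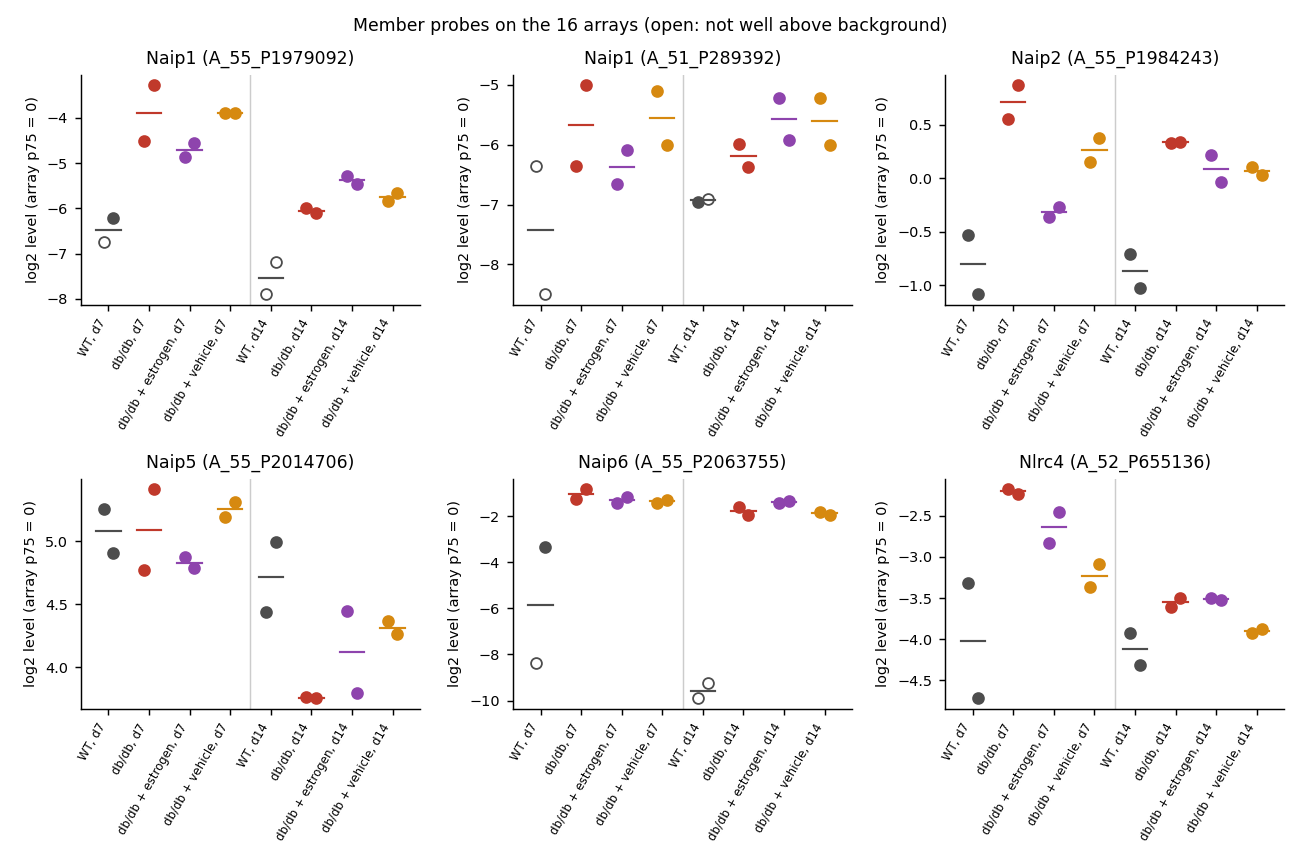
Log2 level of each member probe on every array, by group, for labelled days 7 (d7) and 14 (d14). Points are arrays, bars are group means, 0 is the array's 75th percentile (p75), and open points were not well above background. For Naip6 the 12 arrays of db/db mice lie between −1.97 and −0.84, above all 4 WT arrays.

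Among the db/db arrays, Naip6 varied little. The db/db + estrogen arrays had −1.45 and −1.16 for labelled day 7 and −1.44 and −1.37 for labelled day 14, and the db/db + vehicle arrays −1.43 and −1.30, then −1.83 and −1.95. The db/db day 7 arrays were the highest on average and the db/db + vehicle day 14 arrays the lowest, and the 3 groups of labelled day 7 each overlapped the next in that order. Replicates of a db/db group differed by at most 0.42, against 5.06 between the WT day 7 arrays.

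Naip1, the needle sensor, was near background in WT wounds and dim in all. Its first probe, A_55_P1979092, had −6.75 and −6.20 on the WT arrays for labelled day 7 and −7.90 and −7.20 for labelled day 14, with only WT day 7 replicate 2 well above background. The db/db arrays had −4.51 and −3.27, then −5.99 and −6.11. On each labelled day all arrays of db/db mice lay above the WT arrays. The db/db level was 6.02-fold higher for labelled day 7. There 1 of the 2 WT arrays was well above background and the other was taken at its dim signal. For labelled day 14 it was 2.82-fold higher with both WT arrays at their dim signals as measured. That value was 2.21-fold without WT replicate 1 and 3.59-fold without WT replicate 2. The difference for labelled day 7 was 9.23-fold without db/db replicate 1 and 3.92-fold without db/db replicate 2. On the same WT signals the difference was 3.41-fold and 4.51-fold for db/db + estrogen, and 5.97-fold and 3.47-fold for db/db + vehicle. With normexp its log2 difference from WT in the db/db group was 0.79 and 0.18 for labelled days 7 and 14, against 2.59 and 1.49 without it. With quantile normalization the difference for labelled day 14 was larger, at 2.34. The second probe, A_51_P289392, was closer to background, with −6.36 and −8.50, then −6.95 and −6.91, on the WT arrays. Of these, WT day 14 replicate 1 alone was well above background. Those of db/db had −6.35 and −5.01, then −5.99 and −6.38, which put them at least 2.58-fold higher for labelled day 7 and 1.68-fold higher for labelled day 14. The log2 difference of 1.75 for labelled day 7, with the dim WT signals as measured, ran from 0.69 without WT replicate 2 to 2.82 without WT replicate 1, and was 1.08 and 2.42 without db/db replicates 2 and 1. With normexp its differences turned to −0.012 and −0.042 on the log2 scale, so the second probe gives no direction that holds under both corrections. Quantile normalization gave it a log2 difference of 1.54 for labelled day 14. The pair of Naip1 probes disagreed among the db/db arrays too, with a Pearson r of 0.31 over 12 arrays.

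Naip2, the inner rod sensor, was well above background on all 16 arrays. The WT arrays had log2 levels of −0.53 and −1.08 for labelled day 7 and −0.71 and −1.03 for labelled day 14. Those of db/db had 0.56 and 0.87, then 0.33 and 0.34. All 12 arrays of db/db mice lay above all 4 WT arrays. The difference from WT was 2.87-fold for labelled day 7 and 2.31-fold for labelled day 14 in the db/db group. It was 1.41-fold and 1.94-fold in the db/db + estrogen group, and 2.10-fold and 1.91-fold in the db/db + vehicle group.

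Naip5, the other flagellin sensor, did not share this pattern. The WT arrays had 5.25 and 4.90 for labelled day 7 and 4.44 and 5.0 for labelled day 14. The db/db arrays had 4.77 and 5.41, then 3.77 and 3.75. They overlapped WT for labelled day 7, with a log2 difference of 0.014, and lay below WT for labelled day 14, with a log2 difference of −0.96. The db/db + estrogen arrays had 4.88 and 4.79, then 4.45 and 3.80, and the db/db + vehicle arrays 5.19 and 5.32, then 4.37 and 4.27. The order of the group means ran from db/db + vehicle day 7 down to db/db day 14, whose pair of arrays did not overlap those of any other group.

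Nlrc4, the adaptor that the sensors recruit, was well above background on all arrays. The WT arrays had −3.32 and −4.72 for labelled day 7 and −3.92 and −4.31 for labelled day 14. The db/db arrays had −2.18 and −2.23, then −3.61 and −3.50, which was 3.52-fold and 1.48-fold higher with no overlap on either labelled day. The first of these was 2.17-fold without WT replicate 2 and 5.72-fold without WT replicate 1. The db/db + vehicle arrays of labelled day 7, with −3.37 and −3.09, overlapped WT. With normexp its log2 difference from WT in the db/db group was 1.16 against 1.82 for labelled day 7, and 0.32 against 0.56 for labelled day 14. Quantile normalization moved the latter the other way, to 1.01.

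Between db/db and WT, 5 of the 6 member probes lay higher without overlap for labelled day 7, where 26.3% of all probes tested did so. For labelled day 14, 5 lay higher and 1 lower, with backgrounds of 25.5% and 40.3%. In the db/db + estrogen group 4 lay higher (background 28.4%) and 1, Naip5, lower (29.2%) for labelled day 7, and 5 higher (22.0%) for labelled day 14. In the db/db + vehicle group 4 lay higher (28.2%) for labelled day 7, and 5 higher (27.8%) and 1, again Naip5, lower (36.5%) for labelled day 14. The median log2 difference of the 6 probes between db/db and WT was 1.78 and 0.98 for labelled days 7 and 14, and that of all probes tested −0.048 and −0.12. These values chose the genes, and all comparisons with WT on a labelled day share its WT arrays.

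The mean levels of the myeloid marker lists were higher in db/db than in WT wounds as well, although not every marker was. The lists were chosen with earlier results of these data known. Of the neutrophil list, Retnlg, Ngp, Ltf, Mpo and Camp are among the most raised genes published for db/db against WT. The mean log2 level of 13 macrophage markers ran from 2.75 to 3.47 on the WT arrays and from 3.86 to 4.02 on the db/db arrays for labelled day 7, and from 2.58 to 3.04 and from 3.44 to 3.62 for labelled day 14. All 13 were well above background on every array, and 10 of them had a log2 difference above 0 on each labelled day. Itgam (−2.03 and −1.39), Aif1 (−0.79 and −0.70) and Fcgr1 (−0.10 and −0.34) lay below 0. For 11 neutrophil markers the ranges were −1.16 to −0.88 and 2.99 to 3.83 for labelled day 7, and −0.22 to −0.18 and 0.94 to 1.62 for labelled day 14. Between 9 and 11 of them were well above background on each WT array, and Ngp was not on either WT day 7 array. Of the 11, 10 had a difference above 0 on the arrays labelled day 7 and 8 on those labelled day 14. The granule genes Retnlg (9.68) and Ngp (9.42) differed far more for labelled day 7 than S100a8 (0.75), S100a9 (0.062) and Csf3r (−0.32). The keratinocyte list was lower in db/db for labelled day 7, with 2.62 to 3.49 against 4.08 to 4.10. On that labelled day the fibroblast list overlapped, and the adipocyte list was higher, with 1.32 to 2.55 against 1.02 to 1.14. The db/db and WT arrays labelled day 14 overlapped in these 3 lists. The part of these cells in the levels of the member genes was not tested.

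**Figure D2:**
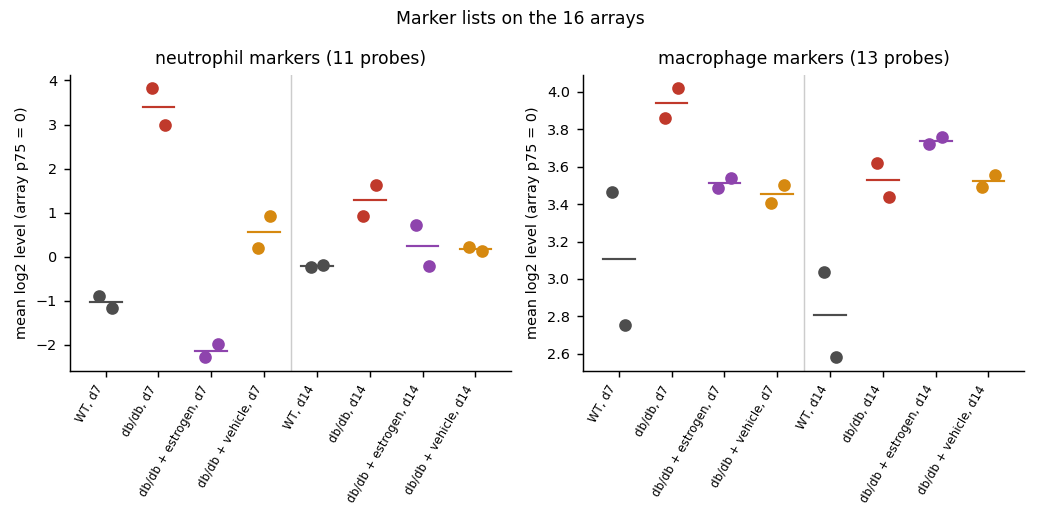
Mean log2 level of the neutrophil and macrophage marker lists on every array, by group, for labelled days 7 (d7) and 14 (d14). Points are arrays, bars are group means, and 0 is the array's 75th percentile (p75). The db/db day 7 arrays are highest in both panels, and for neutrophil markers the db/db + estrogen day 7 arrays are lowest.

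The genes next to the members were read to see whether the difference reached beyond the Naip copies. The 5 nearest genes with a named probe on each side of the Naip cluster had log2 differences between db/db and WT from −0.79 to 0.50 over both labelled days. The 0.50 was that of Cartpt, well above background on 8 arrays, and the −0.79 that of Marveld2, well above background on all 16. For Nlrc4 the 10 neighbours ranged from −0.76 to 0.92. Both ends came from Srd5a2, which was well above background on 1 array, and the other 9 ran from −0.62 to 0.48. On each chromosome, 9 of the 10 neighbours were well above background on all 16 arrays. None of the 20 was beyond 2-fold in the same direction on both labelled days, while Naip2, Naip6 and the first probe of Naip1 were. The members were chosen by this difference and the neighbours were not, so the contrast between them is no test. The share of all probes beyond 2-fold on both labelled days is not given here. How far the difference reaches was not tested.

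**Figure D3:**
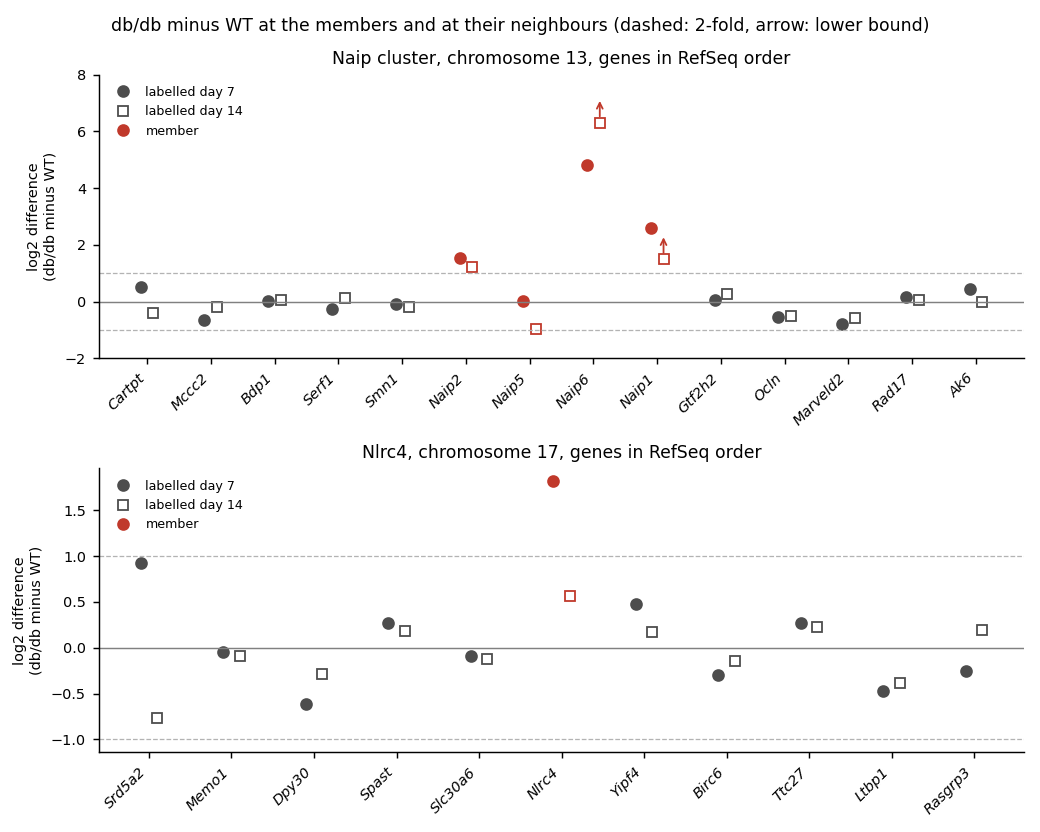
Log2 difference between the db/db and WT group means at the members (red) and their nearest named genes (grey), in the order of the RefSeq table, not to distance. Dots are labelled day 7, squares labelled day 14, dashed lines a 2-fold difference, and arrows lower bounds where no WT array was well above background. For Naip1 the arrow starts at the difference as measured. Naip6 exceeds 4 on both days, and the neighbours stay within −0.79 and 0.92, where 0.92 is Srd5a2, well above background on 1 array.

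The treatments were tested with limma in a model of the 8 groups with 8 residual degrees of freedom. Called probes had a fold change over 2 with a two-sided unadjusted p under 0.05. The Benjamini-Hochberg adjustment ran over all probes tested. The untreated db/db arrays also served to choose the genes. Changes and p-values of the members against these arrays are therefore not independent of that choice. For labelled day 7, Naip2 was lower with estrogen than in untreated db/db wounds. Its log2 levels were −0.36 and −0.26 in the db/db + estrogen group, below both db/db arrays (0.56 and 0.87), and still above both WT arrays. The log2 change was −1.03 (SE 0.21, limma's adjusted p = 0.021). That adjusted p ran from 0.013 to 0.12 over the other settings and from 0.037 to 0.13 without each array in turn. It was −0.92 within one slide and −1.14 within the other. It was the 1 of 6 member probes called, where 9.92% of all probes were. This fold change lay close to the threshold, and the call was lost with normexp (−0.99), without db/db + estrogen day 7 replicate 1 (−0.98) or without db/db day 7 replicate 2 (−0.87). All 6 member probes had changes below 0, with a median of −0.57 against 0.044 for all probes, in a comparison that shares arrays with the choice of the genes. Without db/db day 7 replicate 1, the first Naip1 probe was called too (−1.43).

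With vehicle alone, Nlrc4 was the 1 member probe called for labelled day 7, with 4.81% of all probes called. Its levels of −3.37 and −3.09 lay below both db/db arrays (−2.18 and −2.23). The log2 change was −1.03 (SE 0.36, adjusted p = 0.26 from limma), so the call did not hold after adjustment. The adjusted p ran from 0.061 to 0.53 over the other settings. It was −1.19 and −0.86 within the slides. The call was lost with normexp (−0.78), without db/db day 7 replicate 1 (−0.999) or without db/db + vehicle day 7 replicate 1 (−0.89). With estrogen, Nlrc4 had −2.83 and −2.45, a log2 change of −0.43 that was not called (SE 0.36, limma's adjusted p = 0.58). Naip2 had 0.15 and 0.38 with vehicle, between the estrogen and the untreated arrays, and its log2 change of −0.45 was not called (limma's adjusted p = 0.38).

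The groups that both received the oil were then compared. The log2 change uses neither the WT nor the untreated db/db arrays, while its SE pools the spread of all 16 arrays. With estrogen against vehicle for labelled day 7, 0 of 6 member probes were called, against 8.98% of all probes. Naip2, the 1 with an unadjusted p below 0.05, had a log2 change of −0.58 (SE 0.21, adjusted p = 0.15 from limma) and no overlap between arrays. The first Naip1 probe had −4.86 and −4.56 with estrogen and −3.90 on both vehicle arrays, −0.81 on the log2 scale (SE 0.37, adjusted p = 0.25 from limma). Nlrc4 went the other way, with 0.59 (SE 0.36, adjusted p = 0.38 from limma), and it was not called. For labelled day 14, limma called 0 member probes with estrogen against db/db, with vehicle against db/db and with estrogen against vehicle, where 3.92%, 7.51% and 0.982% of all probes were called. No member probe had an unadjusted p below 0.05 in these comparisons. The changes of Naip2 there were −0.25, −0.27 and 0.022, and those of Nlrc4 0.043, −0.35 and 0.39. Naip6 had log2 changes between −0.31 and 0.48 over the 6 treatment comparisons, with an SE of 1.16 that includes the spread of the WT day 7 arrays. In a fit of the 12 db/db arrays alone, chosen after seeing the data, its adjusted p ran from 0.48 to 0.89 (limma) and it was not called. In that fit its change of 0.48 with estrogen against vehicle for labelled day 14 had an unadjusted p of 0.041 from limma.

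**Figure D4:**
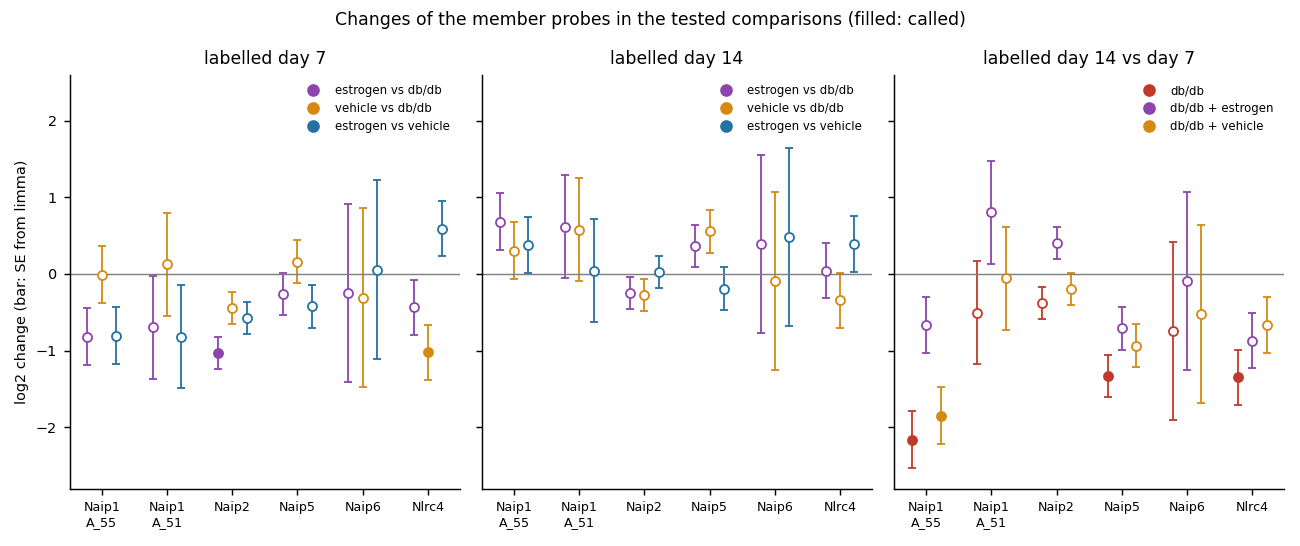
Log2 change of each member probe in the treatment comparisons of labelled days 7 and 14 and between the labelled days within each db/db group. Points are limma estimates, bars their SE, and filled points were called. Estrogen against db/db called Naip2 and vehicle against db/db called Nlrc4 for labelled day 7, and no treatment comparison called a probe for labelled day 14.

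Cell type markers moved with the same comparisons, read against the shares of all probes given above. The neutrophil list holds published top genes of these data, as stated above, so its counts and medians are not independent of that choice. For labelled day 7, limma called 10 of 11 neutrophil markers lower with estrogen than in db/db (median log2 change −5.49) and 5 lower with vehicle (median −3.01). Their mean level was −2.28 to −1.98 in the db/db + estrogen group, 0.20 to 0.92 in the db/db + vehicle group and 2.99 to 3.83 in the db/db group. Of the 13 macrophage markers, 1 was called higher and 3 lower with estrogen, and 0 higher and 3 lower with vehicle. Their mean level was 3.49 to 3.54 with estrogen and 3.40 to 3.50 with vehicle, against 3.86 to 4.02 in db/db. Between estrogen and vehicle, 6 neutrophil markers were called lower, and 1 macrophage marker higher and 1 lower. For labelled day 14, the neutrophil list had 3 lower calls with estrogen and 4 with vehicle against db/db, and 0 between estrogen and vehicle. The macrophage list had 1 lower call there, with estrogen against db/db.

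The keratinocyte and adipocyte lists held calls in these comparisons too. Against untreated db/db wounds of labelled day 7, with estrogen limma called Krt5 (1.06), Trp63 (1.42) and Krt15 (3.31), genes of basal and hair follicle keratinocytes, higher, Krt6a (−3.09), a keratin of wounded epidermis, lower, and Lpl (1.84) of the adipocyte list higher. With vehicle, 1 of the 10 keratinocyte markers, Trp63, was called higher (1.30). The mean keratinocyte level was 3.85 to 4.25 with vehicle, above the 2.62 to 3.49 of db/db, and 3.35 to 3.76 with estrogen, which overlapped db/db. Between estrogen and vehicle, 1 keratinocyte marker was called higher and 1 lower, and 1 adipocyte marker higher. On labelled day 14, 2 keratinocyte markers were called higher with estrogen and 3 with vehicle against db/db, and 0 between estrogen and vehicle. Limma called 0 of 7 fibroblast markers in all 6 treatment comparisons. The part of these cells in the changes of Naip2 and Nlrc4 was not tested.

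Between the labelled days, untreated db/db wounds had the most calls among the member probes, although only 3 of the 6 were tested in WT. The untreated db/db and WT arrays also served to choose the genes. Changes and p-values of the members within these groups are therefore not independent of that choice. Limma called 3 of 6 lower for labelled day 14 than for labelled day 7, where 11.3% of all probes were called lower. The first Naip1 probe, with −4.51 and −3.27 for labelled day 7 and −5.99 and −6.11 for labelled day 14, fell by 2.16 in log2 terms (SE 0.37, adjusted p = 0.0077 from limma). Naip5 fell by 1.33 (SE 0.28, adjusted p = 0.016 from limma). Nlrc4 fell by 1.35 (SE 0.36, adjusted p = 0.038 from limma). For all 3 the arrays of the labelled days did not overlap. The 3 calls, which use the unadjusted p, held under every alternative that could be fitted and without each array in turn. The adjusted p did not stay below 0.05, with 0.11 for the first Naip1 probe, 0.11 for Naip5 and 0.086 for Nlrc4 in a fit of only the arrays compared, and 0.13 for Nlrc4 with quantile normalization (limma). Without each array in turn it ran from 0.0016 to 0.056 for the first Naip1 probe, from 0.010 to 0.13 for Naip5 and from 0.090 to 0.17 for Nlrc4. The change of the first Naip1 probe was −1.22 with normexp and −1.55 without db/db day 7 replicate 2. Naip2 had a log2 change of −0.38 and was not called (limma's adjusted p = 0.27). Naip6 changed by −0.74 with an adjusted p of 0.73, or 0.042 in the fit of the 12 db/db arrays alone (limma), and its fold change was below 2 in both.

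In the db/db + vehicle group the first Naip1 probe was the 1 called, with −3.90 on both arrays for labelled day 7 and −5.84 and −5.66 for labelled day 14. Its log2 change was −1.85 (SE 0.37, limma's adjusted p = 0.013), and 11.7% of all probes were called. Without each array in turn the adjusted p ran from 0.054 to 0.086. Naip5 had −0.94 there (limma's adjusted p = 0.059). In the db/db + estrogen group limma called 0 of 6 member probes, against 13.9% of all probes, though Nlrc4 and Naip5 had an unadjusted p below 0.05 with log2 changes of −0.87 and −0.71. The adjusted p was 0.14 for Nlrc4 and 0.12 for Naip5 (limma). Nlrc4 was called without db/db + estrogen day 7 replicate 1 (−1.06) and Naip5 without db/db + estrogen day 14 replicate 1 (−1.03). In WT wounds 3 probes were bright enough to be tested, those of Naip2, Naip5 and Nlrc4, and limma called 0 of them, against 4.31% of all probes. Their log2 changes were −0.064, −0.36 and −0.094, and 0 had an unadjusted p below 0.05. Neutrophil markers moved with these comparisons too, with 5 of 11 called lower for labelled day 14 in db/db, 5 called higher in db/db + estrogen and 1 lower in db/db + vehicle. In the macrophage list 1 marker was called lower in db/db and 1 higher in db/db + estrogen, and in the adipocyte list 4 of 5 lower in db/db + estrogen. Their part was not tested, nor was that of slide and scan day.

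Other genes of the pathway were read from a list of 23 inflammasome genes, of which 22 had a named probe. For labelled day 7 and estrogen against db/db, limma called 0 of the 21 tested higher and 4 lower, where 9.92% of all probes were called in either direction. The median log2 change was −0.18 against 0.044 for all probes. Il1b, the cytokine that caspase-1 releases, had log2 levels of 3.46 and 3.95 in db/db, −4.55 and −0.99 with estrogen and 2.06 and 1.86 with vehicle. Its change with estrogen was −6.48 (SE 1.01, limma's adjusted p = 0.0063), although its estrogen arrays lay far apart. Mefv, the pyrin sensor found in neutrophils and monocytes, had 1.89 and 2.17 in db/db, −2.42 and −2.21 with estrogen and 0.82 and 0.94 with vehicle. It changed by −4.34 with estrogen (limma's adjusted p = 0.00055). Casp4, which encodes the lipopolysaccharide sensor caspase-11, changed by −1.13 (limma's adjusted p = 0.0092). Il1rn, an antagonist of IL-1, was called with a change of −1.44 and an adjusted p of 0.11 from limma.

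The core partners of Nlrc4 were not called in any treatment comparison, which does not mean that none moved. For labelled day 7 and estrogen against db/db, Casp1 had a log2 change of 0.073, Pycard, the gene of ASC, 0.053, Gsdmd, the gene of gasdermin D, −0.41, and Il18 0.16. Irf8, a transcription factor of the monocyte lineage, had −0.11. Casp1 ran from 1.47 to 2.28 over all 16 arrays. For labelled day 7, Pycard had 3.87 and 4.17 with vehicle against 2.96 and 3.59 in db/db. Its levels for labelled day 14 were 4.16 and 4.02 against 3.19 and 3.41. Gsdmd went the other way with vehicle, at 0.82 and 1.01 against 1.36 and 1.23, then 0.83 and 0.90 against 0.99 and 1.01. These changes of Pycard and Gsdmd were below 2-fold. With vehicle against db/db for labelled day 7, limma called 1 of 21 genes lower, Mefv at −1.15 (adjusted p = 0.24), against 4.81% of all probes. Between estrogen and vehicle it called Il1b (−4.73, adjusted p = 0.039) and Mefv (−3.19, adjusted p = 0.0049) lower and P2rx7, the ATP receptor upstream of Nlrp3, higher (1.01, adjusted p = 0.087), 3 of 21 against 8.98% of all probes. For labelled day 14, Il1b was the 1 gene called, at −2.73 with estrogen and with vehicle against db/db (adjusted p = 0.45 and 0.21 from limma), against 3.92% and 7.51% of all probes. Limma called 0 of 21 between estrogen and vehicle, against 0.982%. P2rx7 (0.87) and Irf8 (0.60), the 2 with an unadjusted p below 0.05 there, had folds below 2.

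**Figure D5:**
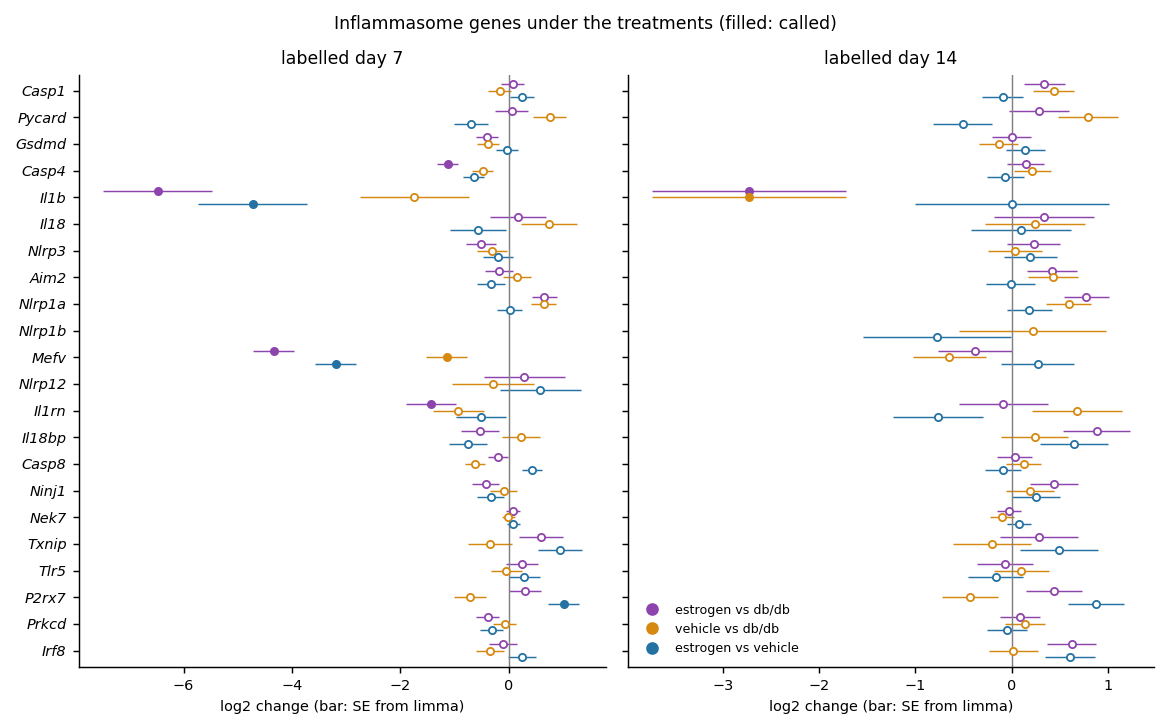
Log2 change of the inflammasome genes in the 3 treatment comparisons, for labelled days 7 and 14. Points are limma estimates, bars their SE, filled points were called, and a gene without a point was not tested there. Il1b and Mefv stand far below 0 with estrogen for labelled day 7, while Casp1 and Pycard stay within 1 of 0.

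Between the labelled days, the list had 1 gene called lower in db/db, Mefv at −1.28 (limma's adjusted p = 0.055), where 11.3% of all probes were called lower. In the db/db + estrogen group limma called Il1b (3.82, adjusted p = 0.038) and Mefv (2.68, adjusted p = 0.0056) higher for labelled day 14, against 13.9% of all probes called. In WT, where 4.31% of all probes were called, it called Il1b and Mefv higher and Txnip lower, with adjusted p-values from 0.30 to 0.35.

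Between db/db and WT, 11 of the 22 inflammasome genes lay higher without overlap (background 26.3%) and 5 lower (31.9%) for labelled day 7, and 9 higher (25.5%) and 7 lower (40.3%) for labelled day 14. Nlrp1b, the sensor of anthrax lethal factor, was singled out after its values were seen. Its levels were −2.56 and −3.68 on the WT day 7 arrays and −3.02 and −1.85 on the WT day 14 arrays. The db/db arrays had −7.79 and −7.80, then −6.25 and −8.36, and 1 of these 4 was well above background. On the arrays labelled day 7 its db/db level was lower by at least 24.7-fold. On the arrays labelled day 14, with 1 of the 2 db/db arrays well above background, it was 18.9-fold lower with the other at its dimmest signal well above background. With the dim array as measured it was 29.2-fold lower, and without db/db replicates 2 and 1 it was 14.0-fold and 60.6-fold lower. The dim arrays as measured gave, for labelled day 7, 17.4-fold to 37.8-fold without each WT array. Nlrp1b and Naip6 thus differed between WT and db/db wounds in opposite directions. Casp1 overlapped WT for labelled day 7, and Pycard and Irf8 did so on both labelled days.

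The patterns most like each member were searched among 22954 named probes well above background on at least 4 arrays, by Pearson r of the log2 level. These r values describe arrays that share groups, slides and scan days. Over 16 arrays they include the difference from WT that chose the genes, so they are not independent of that choice. Over the 16 arrays, Naip6 was most like Mcpt2, a mast cell protease gene (r = 0.93), Tox4 (0.92) and 6330403K07Rik (0.92), and 6 probes reached 0.9. Over the 12 db/db arrays it was most like Atp13a2 (0.96), N4bp2l1 (0.95) and Tk2 (0.93). Naip2 was most like Slc35f6 (0.96), Ncf4, a subunit of the phagocyte NADPH oxidase (0.96), and Ppm1h (0.96) over 16 arrays, and like Klhdc4 (0.98), Lrmda (0.96) and Rilpl2 (0.95) over 12. Nlrc4 was most like Slc36a4 (0.95), the histone gene H2bc8 (0.92) and C87436 (0.91) over 16 arrays, and like H2bc8 (0.96), Mdfic (0.95) and Fbxl12 (0.95) over 12.

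Naip5 followed Coa8 (r = 0.99) and Wdr34 (0.98) over 16 arrays, then Pla2g4b (0.97), and Coa8 (0.995), Wdr34 (0.99) and Limk2 (0.99) over the 12 db/db arrays. Over those 12 arrays 540 probes reached 0.9 with Naip5 and 556 with the first Naip1 probe, against 20 with Naip6. That Naip1 probe was most like Plekhj1, Cenpx and Snapc5 over 16 arrays (0.94, 0.94 and 0.93), and like Olfr905, Pcsk2 and Cd55b over 12 (0.98 each). Among the members themselves over the 12 db/db arrays, r was 0.93 for Naip5 with the first Naip1 probe, 0.84 for Naip6 with it, 0.81 for Naip6 with Nlrc4, and 0.28 for Naip2 with Nlrc4. With the WT arrays added, r fell to 0.39 for Naip5 with the first Naip1 probe and to 0.46 for Naip6 with Nlrc4. It was 0.80 for Naip6 with the first Naip1 probe and rose to 0.65 for Naip2 with Nlrc4. The WT arrays bring in the difference that chose the genes, so these shifts are a description only.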

How the data were processed

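Total RNA from whole-wound homogenates was labelled with Cy3 and hybridised to 16 single-colour mouse arrays, 2 in each of 8 groups taken from the labels. The deposited scanner files, made with Agilent Feature Extraction 11.0.1.1 per the labels, hold the background-subtracted signal intensity of each spot and flags for spots well above background, saturated or outlying. The deposited value table holds, for 34643 probes, a ratio that equalled the intensity over the array's 75th percentile within 0.1% for at least 99.4% of probes. Scale and direction were thus recovered, and no centring over genes was seen. The number of arrays limits the precision.

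The level of a probe was log2 of its intensity minus that of the array's 75th percentile (1091 to 2548). Control spots were removed, spots of a probe were averaged, and 96 probes with outlier spots were left out. Of 39429 probes, 69.5% were named through their RefSeq accession (annotation GRCm38.p6), which can differ from the name in the array design. Group means were fitted with limma 3.58.1 in R 4.3.3 (statmod 1.5.0 for random blocks). A probe was tested in a comparison if well above background on all arrays of at least one of the groups compared. Called means an unadjusted p below 0.05 with a fold above 2. The procedure was tested on simulated data.

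The member genes and the gene lists were chosen with earlier results of these data known. Differences from WT are given without a test, for members and lists alike. A list gene with several probes was read through the one of highest mean. Named were all member probes, Casp1, Pycard, Gsdmd, Il1b, Il18 and Irf8, up to 5 other inflammasome genes called per comparison, neighbours beyond 2-fold on both labelled days, and the 3 genes most like each member. Nlrp1b was named outside this rule. No named probe was found here for Nlrp6, Cd68 and Ly6g. Alternatives were normexp on the median spot and local background signals (offset 50), quantile normalization, other filters on dim probes, a floor, the deposited ratios, other sets of arrays, slide and replicate blocks, adjusted p-values, and leaving out each array.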

Additional observations from a re-analysis of the deposited data

Results flagged for a closer look

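The response to estrogen differed between the labelled days for Naip1 and Naip2 by limma's test of the difference, at an unadjusted p below 0.05, and none passed after adjustment. For the first Naip1 probe, the log2 change with estrogen against db/db was −0.82 on arrays labelled day 7 and 0.68 on those labelled day 14, which differ by 1.50 (SE 0.52, limma's adjusted p = 0.35). Against vehicle, the changes of this probe were −0.81 and 0.38, a difference of 1.18 (SE 0.52, limma's adjusted p = 0.44). For Naip2, the change with estrogen against db/db was −1.03 and −0.25, a difference of 0.78 (SE 0.30, limma's adjusted p = 0.40). Both comparisons of the Naip1 probe use the same estrogen arrays, and labelled day cannot be told apart from slide and scan day. Those against db/db also use the untreated arrays that served to choose the genes.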

How the results depend on the processing

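The 3 calls of untreated db/db wounds between the labelled days held under all alternatives that could be fitted. Counts of called member probes otherwise moved as follows. With normexp, 0 were called for estrogen and 0 for vehicle against db/db for labelled day 7, and by adjusted p 0 for vehicle. Without a filter on dim probes, 2 were called between the labelled days in WT, both on probes not well above background on all arrays of either WT group. Leaving out each array in turn gave 0 to 2 calls for estrogen and 0 to 1 for vehicle against db/db for labelled day 7. It gave 0 to 1 between the labelled days in db/db + estrogen, 1 to 2 in db/db + vehicle and 0 to 2 in WT. With normexp, log2 values changed sign for Nlrc4 under estrogen against db/db, labelled day 14 (−0.020), for Naip6 with vehicle against db/db for labelled day 14 (0.033), for the second Naip1 probe between the labelled days in WT (−0.17) and for that probe between db/db and WT (−0.012 and −0.042 for labelled days 7 and 14). With quantile normalization they changed sign for Nlrc4 under estrogen against db/db, labelled day 14 (−0.018) and between the labelled days in WT (0.068), for the second Naip1 probe between the labelled days in db/db (0.059) and db/db + vehicle (0.35), for Naip6 in db/db + estrogen (0.050) and for Naip5 in db/db against WT of labelled day 7 (−0.10). The cause was not tested.

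Leaving out each array in turn moved these values across 0. For labelled day 7, Naip5 ran from −0.58 to 0.060 with estrogen and from −0.16 to 0.48 with vehicle against db/db, and from −0.31 to 0.33 between db/db and WT. The first Naip1 probe ran from −0.63 to 0.60 and the second from −0.55 to 0.79 with vehicle against db/db, and Naip6 from −0.088 to 0.20 between estrogen and vehicle. For labelled day 14, Nlrc4 ran from −0.012 to 0.097 with estrogen and Naip6 from −0.26 to 0.083 with vehicle against db/db. Between estrogen and vehicle there, the second Naip1 probe ran from −0.35 to 0.43, Naip2 from −0.10 to 0.15 and Naip5 from −0.52 to 0.13. Between the labelled days, the second Naip1 probe ran from −0.57 to 1.56 in WT, from −1.18 to 0.17 in db/db and from −0.50 to 0.39 in db/db + vehicle. In WT, Naip2 ran from −0.34 to 0.21 and Nlrc4 from −0.79 to 0.61, and in db/db + estrogen Naip6 ran from −0.24 to 0.047. A lone array left in a group was assumed to vary like the other groups.

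The replicate block kept the 1 call of estrogen against db/db for labelled day 7, Naip2 at −1.03, and the replicate block changed no other call. The replicate number was the slide for labelled day 7, and was not tied to the slide in the same way for labelled day 14. The correlation of same-numbered arrays ran from −0.42 to 0.33 over the comparisons, so the arrays were not treated as pairs. Slide as a fixed block could not be fitted between the labelled days. The fit of the 12 db/db arrays alone was chosen after seeing the data. Of the values for single probes, 967 kept direction under their alternative, and the call as well where one was made, while 36 changed direction. Differences from WT have no call, and their size could still move. Some alternatives, such as the adjusted p, leave the log2 value unchanged by design.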
